A study of Homo sapiens with 18 samples.

Results

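Transcript levels of 8 inflammatory cytokine genes were followed in human keratinocytes over a course of type I interferon. The genes were listed by name, with earlier results of these data known. They were the interleukin-1 (IL-1) family ligands IL1A, IL1B, IL18 and IL36G, the receptor antagonists IL1RN and IL36RN, the cytokine IL6 and the chemokine CXCL8. Of these 8 genes, 6 had a row among the 16472 genes of the deposited table. IL36G and IL6 had no row and were not analysed here. NIKS cells, an established line of spontaneously immortalized human keratinocytes, carried either wild-type SP100 (WT) or a knockout of SP100 (KO), a gene whose protein is a component of PML nuclear bodies. Each genotype was left untreated (0 h) or was exposed to human interferon alpha 2a at 25 ng/mL for 12 or 48 h, which gave 6 groups of 3 libraries labelled as biological replicates. All 6 groups were grown on lethally irradiated J2/3T3 mouse fibroblasts in medium containing hydrocortisone and epidermal growth factor. Column names gave 1 line for each genotype, so the effect of the SP100 allele and of the line cannot be told apart. Untreated libraries were taken at 0 h alone, so hours of interferon and hours of further culture cannot be told apart either.

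IL-1 alpha, IL-1 beta and IL-18 are made as precursors. IL-1 alpha can signal without cleavage, whereas IL-1 beta and IL-18 are activated mainly by caspase-1. IL-1 alpha and IL-1 beta bind the receptor IL-1R1 and, through the adaptor MyD88, activate NF-kappaB and AP-1, which drive the transcription of CXCL8, IL6 and other inflammatory genes. The IL-1 receptor antagonist encoded by IL1RN and the IL-36 receptor antagonist encoded by IL36RN occupy the receptors without signalling. Keratinocytes store IL-1 alpha and IL-18 constitutively, and they make an intracellular form of the IL-1 receptor antagonist from a start site of its own.

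In GENCODE release 29, used only for gene order and overlaps, 9 IL-1 family genes lie side by side on chromosome 2 in the order IL1A, IL1B, IL37, IL36G, IL36A, IL36B, IL36RN, IL1F10 and IL1RN, and 4 of the 9 had a row. IL18 lies on chromosome 11 and CXCL8 on chromosome 4. RefSeq promoter windows (GRCh38.p14) matched 7 of the 8 listed genes, with no entry for IL18. The 250 bases before the annotated start site are printed for IL1RN, CXCL8, IL1B and IL1A, 5′ to 3′ on the strand of the gene. 2 of the 3 IL1RN windows and 1 of the 2 IL1A windows are printed, since the others overlap them. Capitals mark matches on either strand to the letters of an interferon-stimulated response element (ISRE) core (GAAANNGAAA), a gamma-activated site (TTCNNNGAA), an NF-kappaB site (GGNNNTTCC), an AP-1 site (TGANTCA) or a CEBP site (TTNNGCAA), and no matches overlapped in these windows.
IL1RN, upstream start, chr2:113117721-113117970, plus strand: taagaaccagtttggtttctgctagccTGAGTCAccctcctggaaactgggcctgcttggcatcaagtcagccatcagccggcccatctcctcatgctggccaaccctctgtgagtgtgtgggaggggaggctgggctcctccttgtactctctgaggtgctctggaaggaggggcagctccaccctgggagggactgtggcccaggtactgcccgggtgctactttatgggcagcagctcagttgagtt
IL1RN, downstream start, chr2:113127239-113127488, plus strand: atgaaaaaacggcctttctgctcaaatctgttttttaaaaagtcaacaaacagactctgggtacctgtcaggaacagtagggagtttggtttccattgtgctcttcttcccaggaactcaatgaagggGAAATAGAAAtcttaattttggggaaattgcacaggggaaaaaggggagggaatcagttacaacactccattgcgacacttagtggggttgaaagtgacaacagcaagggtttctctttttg
CXCL8, chr4:73740319-73740568, plus strand: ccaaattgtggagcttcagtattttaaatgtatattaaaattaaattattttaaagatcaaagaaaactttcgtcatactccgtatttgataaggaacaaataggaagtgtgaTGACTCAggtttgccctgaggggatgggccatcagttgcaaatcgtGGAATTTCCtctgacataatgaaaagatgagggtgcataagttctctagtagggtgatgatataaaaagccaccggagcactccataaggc
IL1B, chr2:112836780-112837029, minus strand: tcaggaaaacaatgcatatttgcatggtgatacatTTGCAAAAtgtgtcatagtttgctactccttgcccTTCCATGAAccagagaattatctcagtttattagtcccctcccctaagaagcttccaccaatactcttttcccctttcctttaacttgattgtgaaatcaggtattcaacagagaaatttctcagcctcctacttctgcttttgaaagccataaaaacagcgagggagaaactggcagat
IL1A, chr2:112784494-112784743, minus strand: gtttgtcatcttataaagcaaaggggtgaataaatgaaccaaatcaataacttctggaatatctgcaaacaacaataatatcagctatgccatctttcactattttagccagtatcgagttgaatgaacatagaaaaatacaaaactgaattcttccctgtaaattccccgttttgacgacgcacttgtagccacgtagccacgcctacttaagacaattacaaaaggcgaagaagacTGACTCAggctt
The downstream IL1RN window held the ISRE core letters 122 to 113 bases before the start, a match found in 3.02% of all 35116 RefSeq windows of this length. The upstream IL1RN window held none of the ISRE letters and had AP-1 letters 223 to 217 bases before the start. In the CXCL8 window the AP-1 letters lay 137 to 131 bases and the NF-kappaB letters 91 to 83 bases before the start. The IL1B window carried CEBP letters 215 to 208 bases and gamma-activated site letters 180 to 172 bases before the start. AP-1 letters also stood 12 to 6 bases before the IL1A start. The third IL1RN window, which is not printed, shared the ISRE letters and held NF-kappaB letters 96 to 88 bases before its start. The other IL1A window held AP-1 letters at 105 to 99 and at 55 to 49 bases. IL36RN had 2 windows, which are not printed and held no match to any of these letters. AP-1 letters occurred in 6.57% of all windows, gamma-activated site letters in 6.57%, CEBP letters in 9.05% and NF-kappaB letters in 17.1%. Such matches describe the letters only, and binding was not measured in these data.

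Values are RPKM (reads per kilobase of gene, scaled to library size), with SD over the 3 libraries of a group. Changes are differences of log2(RPKM + 1) with their standard errors (SE), a scale that understates the change of genes near 1 RPKM. They were tested with limma over 13280 genes, and a gene was called when its Benjamini-Hochberg adjusted p was under 0.05. IL18 and IL1A were the most abundant of the 6 genes, with mean levels over 18 libraries at percentiles 88.6 and 88.2 of all genes in the table. IL1B stood at percentile 66.4, IL1RN at 62.0, CXCL8 at 26.1 and IL36RN at 18.7. CXCL8 reached 1 RPKM in 8 libraries, among them all 6 at 12 h, and IL36RN in 3 libraries, 2 of KO at 12 h and 1 of KO at 48 h. Both of these genes therefore entered the test only through the groups in which they were high. In bulk RNA, fewer cells of a type and less RNA per cell cannot be told apart.

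**Figure D1:**
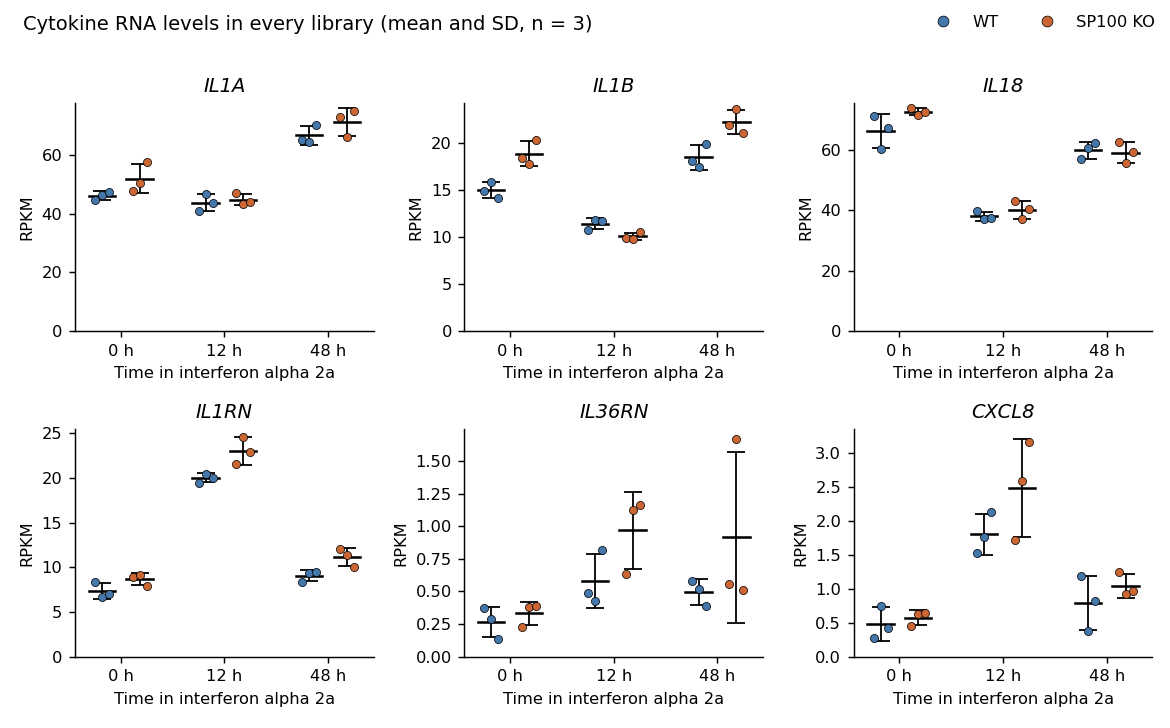
RNA level (RPKM, linear axes from 0) of the 6 cytokine genes in each of the 18 libraries by hours in interferon alpha 2a, with points for libraries, long bars for means and whiskers for SD (n = 3). IL1RN and CXCL8 peaked at 12 h, IL18 and IL1B were lowest at 12 h, and IL1A was highest at 48 h in both genotypes.

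After 12 h of interferon the 6 genes divided by direction: the antagonist IL1RN and the chemokine CXCL8 rose, while IL18 and IL1B fell, in both genotypes. In WT, 2 of the 6 genes were called higher and 2 lower, where 44.9% of all genes tested were called, 15.1% higher and 29.8% lower. In KO, 3 were called higher and 3 lower, where 48.8% of all genes tested were called, 16.0% higher and 32.8% lower. With calls this common among all genes, the counts describe the 6 genes and do not set them apart. The higher counts include CXCL8 in both genotypes and IL36RN in KO, each tested only because of groups in which it was high. Of all called genes, 33.6% in WT and 32.7% in KO were higher, and 51.6% and 50.9% with median-of-ratios scaling. The median change of all genes tested was -0.09 in each genotype, and that scaling, which removes the shift, left the direction of every called cytokine gene at 12 h as it was.

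IL1RN, the antagonist of IL-1 alpha and IL-1 beta, was at 8.35, 6.70 and 6.99 RPKM in untreated WT and at 19.5, 20.5 and 20.0 RPKM in WT at 12 h. KO libraries held 8.95, 9.18 and 7.90 RPKM without interferon and 21.5, 24.6 and 23.0 RPKM after 12 h. Every library at 12 h lay above every untreated library. The mean rose 2.72-fold in WT (log2 change 1.34, SE 0.084; limma, adjusted p = 3.51e-09) and 2.66-fold in KO (1.31, SE 0.084; adjusted p = 4.29e-09). At 48 h IL1RN was back at 8.36, 9.43 and 9.49 RPKM in WT and at 12.1, 11.4 and 10.1 RPKM in KO. All 6 values at 48 h were below the lowest value at 12 h, and the fall from 12 to 48 h on the log2 scale was 1.06 in WT and 0.98 in KO (limma, adjusted p = 1.77e-07 and 2.74e-07). What remained above the untreated level at 48 h was 0.28 in WT (adjusted p = 0.0392) and 0.33 in KO (adjusted p = 0.015), and neither group overlapped its untreated group. These small differences were less stable: the WT call was lost without replicate 2 or 3 of untreated WT or of WT at 48 h (limma adjusted p from 0.119 to 0.156), and the KO call without replicate 3 of untreated KO or replicate 1 or 2 of KO at 48 h (0.0522 to 0.0687).

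IL36RN, the antagonist of the IL-36 receptor, was scarce, at 0.14 to 0.37 RPKM in the 3 untreated WT libraries and 0.23 to 0.39 RPKM in the 3 untreated KO libraries. At 12 h it was at 0.49, 0.43 and 0.82 RPKM in WT and at 0.63, 1.12 and 1.16 RPKM in KO. In each genotype the libraries at 12 h were all above the untreated libraries. IL36RN was tested only because of KO libraries at 12 and 48 h, so its change is given as a description. The log2 change at 12 h was 0.55 in KO (SE 0.20) and 0.31 in WT. The KO call was lost without replicate 1 of untreated KO or replicate 2 or 3 of KO at 12 h. At 48 h KO replicate 2 stood at 1.67 RPKM against 0.56 and 0.51 RPKM in its group, and no change at 48 h was called.

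IL18, a precursor that keratinocytes hold in quantity, was at 71.3, 60.4 and 67.4 RPKM in untreated WT and at 39.8, 37.0 and 37.5 RPKM in WT at 12 h. In KO the values were 73.9, 71.8 and 72.8 RPKM before interferon and 43.1, 37.0 and 40.5 RPKM at 12 h. All libraries at 12 h lay below all untreated libraries. IL18 fell to 57.5% of its untreated mean in WT (log2 change -0.78, SE 0.064; limma, adjusted p = 1.11e-07) and to 55.2% in KO (-0.84, SE 0.064; adjusted p = 3.66e-08). By 48 h it had risen again, to 60.0 ± 2.81 RPKM in WT and 59.2 ± 3.5 RPKM in KO, which was 0.64 and 0.55 above 12 h on the log2 scale (limma, adjusted p = 2.19e-06 and 7.34e-06). Against untreated cells the 48 h level remained lower in KO (-0.30; limma, adjusted p = 0.00559), with no overlap of the libraries. In WT the difference was -0.14 (adjusted p = 0.17) and the libraries overlapped. IL18 overlaps 1 gene on the other strand, AP002884.3, which was at 0.51 RPKM or less in every library, and how strand entered the authors' counting is not given in the sources used here.

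IL1B, whose precursor is cleaved by caspase-1, was at 14.9, 15.8 and 14.1 RPKM in untreated WT and at 10.7, 11.8 and 11.7 RPKM in WT at 12 h. Untreated KO libraries held 18.4, 17.8 and 20.3 RPKM, and KO libraries at 12 h held 9.83, 9.82 and 10.5 RPKM. Within each genotype the 12 h libraries were all lower than the untreated ones. IL1B fell by 0.36 on the log2 scale in WT (SE 0.067; limma, adjusted p = 0.000426) and by 0.84 in KO (SE 0.067; adjusted p = 6.18e-08), to 76.4% and 53.4% of the untreated mean. At 48 h the levels were 18.1, 17.4 and 19.9 RPKM in WT and 21.9, 23.5 and 21.1 RPKM in KO, above every untreated library of the same genotype. The rise over untreated cells was 0.29 in WT (limma, adjusted p = 0.00909) and 0.23 in KO (adjusted p = 0.0354). It missed the threshold in WT without replicate 3 at 48 h (adjusted p = 0.0505), and in KO without replicate 1 or 2 of either group (0.0691 to 0.148). Between 12 and 48 h the mean rose 2.2-fold in KO (log2 change 1.07; limma, adjusted p = 1.04e-08) and 1.62-fold in WT (0.65; adjusted p = 2.89e-06).

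IL1A, the alarmin form of IL-1, was at 44.7, 46.5 and 47.6 RPKM in untreated WT and at 41.0, 46.7 and 43.8 RPKM in WT at 12 h. The KO libraries measured 47.9, 50.6 and 57.6 RPKM without interferon and 47.2, 43.4 and 44.1 RPKM after 12 h. WT groups overlapped, whereas the KO groups were just separated. The change at 12 h was -0.08 in WT (SE 0.068; limma, adjusted p = 0.376) and -0.20 in KO (SE 0.068; adjusted p = 0.0205). With median-of-ratios scaling the WT value turned to 0.02 and the KO value was -0.10 (limma, adjusted p = 0.25), so the KO call did not survive the scaling. It was also lost without replicate 3 of untreated KO (-0.13, adjusted p = 0.119) and without replicate 2 or 3 of KO at 12 h (0.0703 and 0.0599). At 48 h IL1A was at 65.3, 64.5 and 70.5 RPKM in WT and at 73.2, 66.1 and 75.1 RPKM in KO. All 6 of these libraries were above every library at 0 and 12 h. The rise over untreated cells was 0.52 in WT (SE 0.068; limma, adjusted p = 5.79e-05) and 0.45 in KO (SE 0.068; adjusted p = 0.00024).

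CXCL8, which encodes the neutrophil chemoattractant interleukin-8, was at 0.27, 0.75 and 0.43 RPKM in untreated WT and at 1.52, 1.76 and 2.12 RPKM in WT at 12 h. KO cells had 0.45, 0.63 and 0.64 RPKM before and 1.72, 2.58 and 3.15 RPKM after 12 h of interferon. The 6 libraries at 12 h were the 6 highest of the 18. The mean rose 3.72-fold in WT (log2 change 0.92, SE 0.18) and 4.33-fold in KO (1.13, SE 0.18). CXCL8 was tested only because of its 12 h levels, so its changes to and from 12 h are given as a description. At 48 h it was at 1.18, 0.38 and 0.82 RPKM in WT and at 1.25, 0.92 and 0.96 RPKM in KO, below all libraries at 12 h. The fall from 12 h was 0.66 in WT and 0.75 in KO. Without replicate 2 of WT at 48 h the WT change of CXCL8 was -0.49. Its change from 0 to 48 h was 0.26 in WT and 0.38 in KO (limma, adjusted p = 0.397 and 0.207).

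Ordered by mean level, IL1A ran from the overlapping 12 h groups and untreated WT through untreated KO, which overlapped neither neighbour, to the overlapping 48 h groups. IL1B rose from KO at 12 h through WT at 12 h and untreated WT, each without overlap, to WT at 48 h and untreated KO, which overlapped, and then to KO at 48 h. IL1RN was lowest in untreated WT, untreated KO and WT at 48 h, neighbours whose ranges overlapped, and then stepped without overlap to KO at 48 h, WT at 12 h and KO at 12 h. IL18 was lowest in the 12 h groups, which overlapped, and then stepped to KO at 48 h, WT at 48 h and untreated WT, which overlapped in turn, with untreated KO above them. CXCL8 had 1 gap without overlap, between KO at 48 h and WT at 12 h, and IL36RN had none between neighbours.

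At 48 h against untreated cells, 3 of the 6 genes were called higher and none lower in WT, where 12.8% of all genes tested were called, 6.52% higher and 6.30% lower. KO cells had 3 called higher and 1 lower, where 13.3% were called, 5.90% higher and 7.42% lower. The 3 genes higher in each genotype were IL1A, IL1B and IL1RN, and the 1 lower in KO was IL18. From 12 to 48 h, 3 genes were called higher (IL1A, IL1B and IL18) and 2 lower (IL1RN and CXCL8) in WT, where 35.9% of all genes tested were called, 24.6% higher and 11.3% lower. The same 5 genes were called in the same directions in KO, where 41.7% were called, 27.7% higher and 14.0% lower. Of all genes called between 12 and 48 h, 68.5% in WT and 66.4% in KO were higher, against 47.0% and 47.5% with median-of-ratios scaling, under which the same 5 cytokine genes were called in the same directions in each genotype. The comparisons of 12 h, 48 h and 0 h share libraries, so these counts are not independent of each other. CXCL8, in the lower counts from 12 to 48 h, was tested only because of its 12 h levels.

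**Figure D2:**
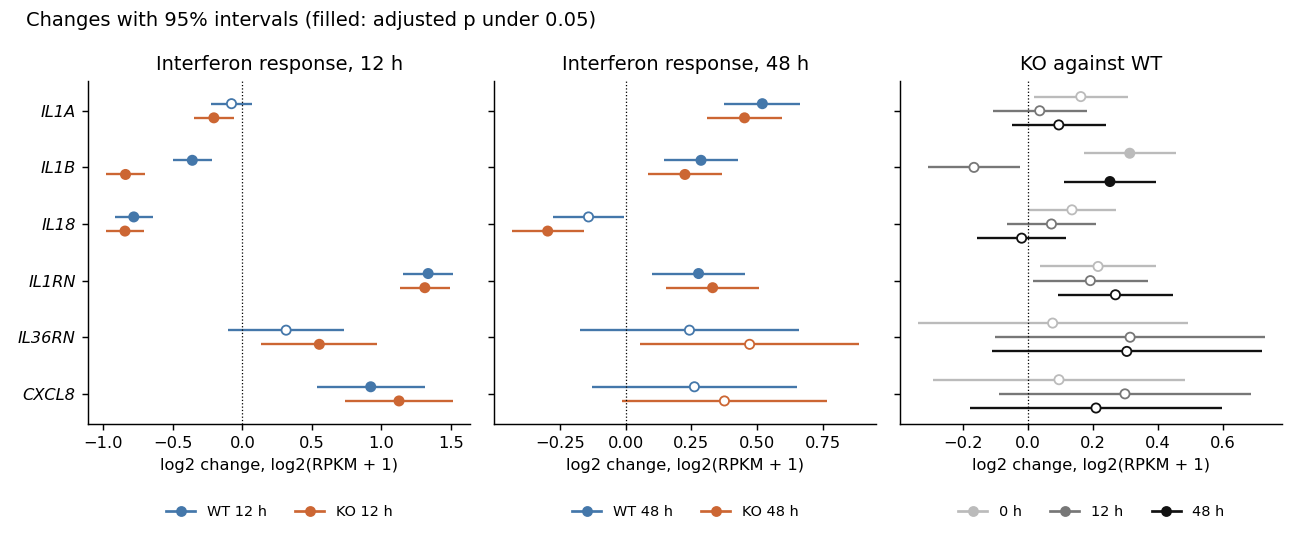
Differences of log2(RPKM + 1) with 95% intervals for the 6 cytokine genes, for 12 and 48 h against 0 h in WT and KO and for KO against WT at each time; filled symbols had an adjusted p under 0.05. At 12 h IL1B is the gene whose WT and KO values lie farthest apart relative to their intervals (-0.36 and -0.84), and in the KO against WT panel the 2 filled symbols are IL1B at 0 and 48 h.

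The opposite movement of IL1B and IL1RN at 12 h was also expressed as a ratio of the same values within each library. IL1RN RPKM divided by IL1B RPKM averaged 0.493 ± 0.069 without interferon in WT and 0.464 ± 0.067 in KO. At 12 h the ratio was 1.76 ± 0.061 in WT, with a range of 1.71 to 1.82, and 2.29 ± 0.185 in KO, with a range of 2.18 to 2.51. It was 0.494 ± 0.043 in WT and 0.505 ± 0.042 in KO at 48 h. Antagonist RNA thus exceeded IL1B RNA per kilobase in the 6 libraries at 12 h and in none of the other 12. IL1A was the more abundant agonist throughout: its ratio to IL1B averaged 3.10, 3.84 and 3.62 at 0, 12 and 48 h in WT, and 2.76, 4.47 and 3.24 in KO. Set against the sum of IL1A and IL1B, IL1RN averaged 0.120 in untreated WT and 0.363 in WT at 12 h, and 0.124 and 0.420 in KO. RNA of the antagonist therefore stayed below the summed agonist RNA at 12 h. These ratios are descriptions of levels whose genes are tested above.

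**Figure D3:**
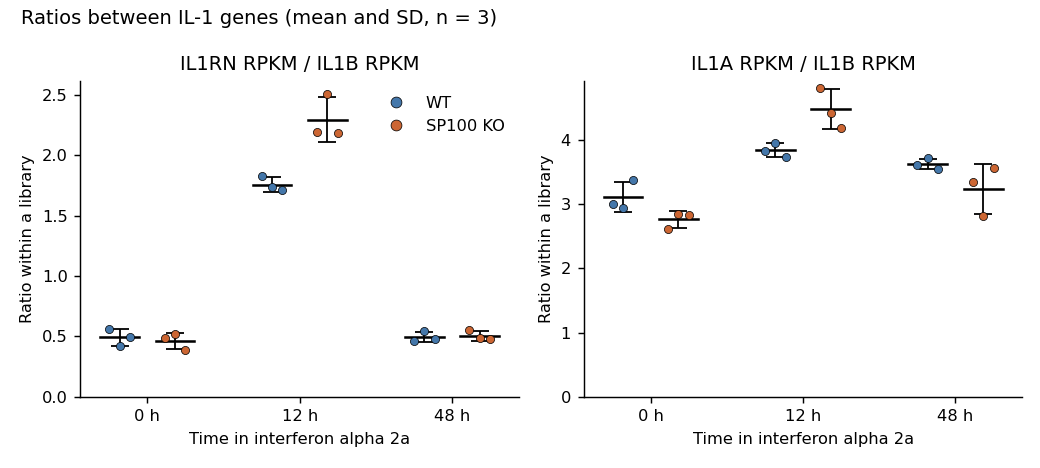
Ratio of IL1RN to IL1B and of IL1A to IL1B (RPKM divided by RPKM in the same library, linear axes from 0) by hours in interferon alpha 2a, with points for libraries, long bars for means and whiskers for SD (n = 3). The ratio of IL1RN to IL1B is at least 1.71 in the 6 libraries at 12 h and at most 0.561 in the other 12.

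Between genotypes, IL1B was the 1 gene of the 6 that passed the test, in untreated cells and at 48 h. In untreated cells its mean was 14.9 ± 0.862 RPKM in WT and 18.8 ± 1.34 RPKM in KO, with no overlap (log2 change 0.31, SE 0.067; limma, adjusted p = 0.011). At 0 h 1 of 6 genes was called, where 4.89% of all genes tested were, 2.82% higher and 2.07% lower; 57.7% of all called genes were higher in KO, and 46.9% with median-of-ratios scaling. The call was lost without replicate 3 of untreated WT (limma adjusted p = 0.0612) or of untreated KO (0.0512). At 48 h IL1B averaged 18.5 ± 1.3 RPKM in WT and 22.2 ± 1.26 RPKM in KO, again without overlap (0.25; limma, adjusted p = 0.0447), and 1 of 6 genes was called where 4.19% of all genes tested were, 2.03% higher and 2.16% lower. Leaving out replicate 1 or 2 of WT or any of the 3 KO replicates at 48 h ended this call (limma adjusted p from 0.0545 to 0.185), as did median-of-ratios scaling (0.0611).

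At 12 h none of the 6 genes was called by limma between genotypes, where 3.62% of all genes tested were, 1.60% higher and 2.02% lower, and 2 of them had an unadjusted p under 0.05. One was IL1B, which at that time was lower in KO, at 10.1 ± 0.401 RPKM against 11.4 ± 0.631 RPKM in WT (log2 change -0.17, 95% interval -0.31 to -0.02; limma, adjusted p = 0.212). The other was IL1RN, at 23.0 ± 1.54 RPKM in KO and 20.0 ± 0.501 RPKM in WT (0.19, 0.01 to 0.37; adjusted p = 0.255). Both pairs of groups were without overlap. The share of all genes whose genotype groups separate in this way was not computed, so such separation is a description only. IL1RN was also higher in each KO library than in each WT library at 48 h (0.27, 0.09 to 0.45; limma, adjusted p = 0.0927). The difference in IL1A was 0.16, 0.04 and 0.09 at 0, 12 and 48 h (limma, adjusted p = 0.211, 0.856 and 0.555), with no overlap of the libraries at 0 h. IL18 differed by -0.02 at 48 h, with a 95% interval of -0.16 to 0.12. For CXCL8 the interval at 12 h was -0.09 to 0.69 around 0.30, and for IL36RN it was -0.10 to 0.73 around 0.31, so these data do not tell a difference of that size from none.

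The difference between genotypes in the response itself was tested as an interaction. For IL1B at 12 h the fall was 0.48 larger in KO on the log2 scale (-0.48, SE 0.095, 95% interval -0.68 to -0.28), with an unadjusted p of 0.000122 and an adjusted p of 0.085 in limma. Over 19 alternatives the value stayed between -0.52 and -0.43 and the adjusted p between 0.0645 and 0.294, so this difference did not pass the threshold in any of them. In this comparison 0.0753% of all genes tested were called. The untreated levels enter the value: IL1B was higher in KO than in WT at 0 h and lower at 12 h. For IL1RN the interaction at 12 h was -0.02, with an interval of -0.28 to 0.23. None of the 6 genes was called by limma in the interaction at 12 h (1 with an unadjusted p under 0.05) or at 48 h (0 with an unadjusted p under 0.05, where 0.0828% of all genes tested were called).

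Pathway genes around the 6 cytokines were followed in lists of receptors, processing enzymes, signalling proteins, transcription factors, related cytokines and mRNA decay factors, with 79 genes tested out of 105 listed. At 12 h in WT, 25 of the 79 were called higher and 12 lower. In KO 29 were called higher and 10 lower. Median-of-ratios scaling gave 31 higher calls with 10 lower for WT, and 37 with 5 for KO. IL1R2, AIM2, CTSS and CXCL1 reached 1 RPKM at 12 h alone and entered the test through that time. Without these 4 genes, 21 of 75 were higher and 12 lower in WT, and for KO the counts were 25 with 10. The called share was 46.8% in WT and 49.4% in KO, close to the 44.9% and 48.8% of all genes tested, with a larger part of the calls in the higher direction. At 48 h against 0 h, 11 rose and 2 fell in WT, while 8 rose and 4 fell in KO. These were 16.5% and 15.2% of the 79, near the 12.8% and 13.3% of all genes tested, and 7 of the 13 WT calls and 5 of the 12 KO calls were lost in at least 1 alternative. Beside these lists, the classical interferon-induced genes IFIT1, IFIT3, MX1, ISG15, OAS1, IFI6 and IRF9, used to check the treatment, were each called higher in both genotypes at 12 and at 48 h.

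Of the IL-1 family receptors and decoys, 3 of 9 were tested and IL1R2 and IL1RAP were called higher at 12 h in each genotype. Of all genes tested, 15.1% were called higher in WT and 16.0% in KO, and a list of 3 genes is too short to be set apart from them. IL1R2, the decoy receptor that binds IL-1 without signalling, averaged 0.127 RPKM in untreated WT and 1.67 RPKM at 12 h, with 0.150 and 2.00 RPKM in KO. It reached 1 RPKM in the 6 libraries at 12 h and in no other, so it was tested only because of that time, and its level is given as a description. IL1RAP, the accessory chain shared by the IL-1, IL-33 and IL-36 receptors, rose by 0.35 and 0.43 (limma, adjusted p = 0.000123 and 1.48e-05). The signalling receptor IL1R1 averaged 0.19 to 0.31 RPKM over the groups and did not reach the level required for testing. IL33, the other IL-1 family ligand with a row, averaged 0.22 to 0.61 RPKM and was not tested either.

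Among 15 tested genes of cytokine processing and release, 8 were called higher and 1 lower at 12 h in WT, as were 8 and 2 in KO. The higher calls include AIM2 and CTSS in each genotype. Both were tested only because of their 12 h levels, so these counts are given as a description. Of all genes tested, 15.1% were called higher and 29.8% lower in WT, and 16.0% and 32.8% in KO. CASP1, the protease that activates IL-1 beta and IL-18, averaged 32.9 ± 0.735 RPKM in untreated WT and 80.7 ± 6.16 RPKM at 12 h (log2 change 1.27; limma, adjusted p = 2.48e-10). In KO it rose by 1.48 (adjusted p = 2.64e-11). CASP1 was still higher at 48 h, by 0.78 in WT and 0.61 in KO (limma, adjusted p = 2.54e-07 and 5.88e-06). RNA of this protease was therefore high at the time at which RNA of its substrates IL1B and IL18 was lowest. GSDMD, the pore-forming protein through which IL-1 beta leaves cells, rose by 0.95 in WT and 0.63 in KO at 12 h (limma, adjusted p = 4.17e-06 and 0.000203), and was lower in KO than in WT at 12 h (-0.56, adjusted p = 0.0074). CTSC, a lysosomal protease, rose by 1.57 in WT (limma, adjusted p = 8.69e-14) and from 188 ± 5.28 to 515 ± 23.9 RPKM in KO (adjusted p = 2.73e-13). AIM2, a DNA sensor of the inflammasome, averaged 0.147 and 1.14 RPKM at 0 and 12 h in WT and 0.130 and 1.18 RPKM in KO, and like IL1R2 it reached 1 RPKM at 12 h alone.

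MYD88, the adaptor of IL-1 and IL-18 receptors, had the largest change of the signalling lists, from 10.9 ± 0.295 to 55.0 ± 1.17 RPKM in WT and from 11.5 ± 0.376 to 62.0 ± 1.75 RPKM in KO at 12 h. It rose by 2.23 in WT and 2.33 in KO (limma, adjusted p = 1.46e-15 and 7.56e-16) and was still 0.96 and 0.93 above untreated cells at 48 h (2.85e-10 and 4.56e-10). Of the 10 tested genes of this receptor-proximal list, 2 were called higher and 2 lower in WT, as were 2 and 1 in KO. Among 16 NF-kappaB subunits and regulators, 5 were higher and 1 lower in WT, as were 7 and 1 in KO. In comparison, 15.1% of all genes tested were called higher and 29.8% lower in WT, and 16.0% and 32.8% in KO. The lower call was IKBKB, with a log2 change of -0.44 in WT and -0.34 in KO (limma, adjusted p = 0.00424 and 0.0191). Its KO call was lost in 4 of 13 alternatives, median-of-ratios scaling among them. TNFAIP3, an NF-kappaB target that restrains the pathway, rose by 0.71 in WT and 1.21 in KO (limma, adjusted p = 0.00204 and 1.56e-05). BIRC3, another NF-kappaB target, was higher at 48 h, by 0.94 in WT and 0.90 in KO (limma, adjusted p = 1.27e-05 and 2.07e-05).

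The AP-1 and CEBP list had 1 gene of 10 higher and 4 lower in WT, and 3 in each direction in KO, near the 15.1% higher and 29.8% lower of all genes tested in WT and the 16.0% and 32.8% in KO. CEBPB, a transcription factor of inflammatory cytokine genes, fell by 0.69 in WT and 0.76 in KO at 12 h (limma, adjusted p = 8.04e-05 and 2.68e-05). JUND fell by 0.69 and 0.70 (limma, adjusted p = 0.00393 and 0.00308), and FOS by 0.50 and 0.44 (0.000654 and 0.00149), both subunits of AP-1. In WT FOSB had a log2 change of -0.98 (limma, adjusted p = 0.00866). This call was lost without replicate 3 of untreated WT or replicate 2 of WT at 12 h, and FOSB was not called in KO. Other AP-1 subunits went the other way. JUN was called higher in both genotypes, by 0.34 in KO (limma, adjusted p = 0.00248), and FOSL1 and FOSL2 were called higher in KO. The FOSL2 call was lost in 7 of 13 alternatives, and the WT call of JUN without replicate 1 of untreated WT. Among 8 AU-rich mRNA decay genes, whose proteins act on many cytokine mRNAs, 1 was higher and 2 lower in each genotype. ZFP36, which encodes tristetraprolin, fell by 0.43 in WT and 0.32 in KO (limma, adjusted p = 0.00541 and 0.0261). In KO the 2 lower calls of the decay list, ZFP36 and ZFP36L2, were lost under median-of-ratios scaling, and ZFP36 also without replicate 1 or 3 of untreated KO or replicate 1 of KO at 12 h.

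Among related chemokines and cytokines, of 7 tested, CXCL1 among them, 4 were called higher in WT and 3 in KO at 12 h and none lower, where 15.1% and 16.0% of all genes tested were called higher. The other 3 in WT and 4 in KO were not called, and the KO call of CXCL2 was lost without replicate 1 or 3 of untreated KO or replicate 2 or 3 of KO at 12 h. The list is too short to be set apart from all genes. CXCL1, a second neutrophil chemokine, averaged 0.10 RPKM in untreated WT, 1.12 RPKM in WT at 12 h, 0.353 RPKM in untreated KO and 2.55 RPKM in KO at 12 h. CXCL1 reached 1 RPKM in 5 libraries, all at 12 h, so its levels are likewise given as a description. Its 12 h libraries lay above its untreated libraries in each genotype. CXCL3 rose by 1.06 in WT and 1.10 in KO (limma, adjusted p = 0.00199 and 0.00133). The IL-6 family signalling list had 2 of 10 genes in each direction in WT at 12 h, and 3 higher with 1 lower in KO. Of all genes tested, 15.1% were called higher and 29.8% lower in WT, and 16.0% and 32.8% in KO. STAT3, the transcription factor of IL-6 signalling, rose by 0.21 in WT and 0.24 in KO (limma, adjusted p = 0.000266 and 5.42e-05), while IL6 itself was not analysed here. The other calls were JAK1 higher and IL6R lower in both genotypes, IL11 lower in WT and IL6ST higher in KO. IL6R fell by 0.28 in WT and 0.20 in KO (limma, adjusted p = 0.0063 and 0.0409). The IL11 call and the KO call of IL6R were lost under median-of-ratios scaling.

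Across the lists, 3 of 79 genes were called between genotypes at 0 h, 3 at 12 h and 2 at 48 h, which is 3.80%, 3.80% and 2.53% against 4.89%, 3.62% and 4.19% of all genes tested. Of the 3 at 12 h, CTSS and CXCL1 were tested only because of their 12 h levels, and both calls were lost with a pseudocount of 0.1, which leaves GSDMD. None of the 79 was called by limma in the interaction at 12 or 48 h, and 9 and 4 of them had an unadjusted p under 0.05.

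**Figure D4:**
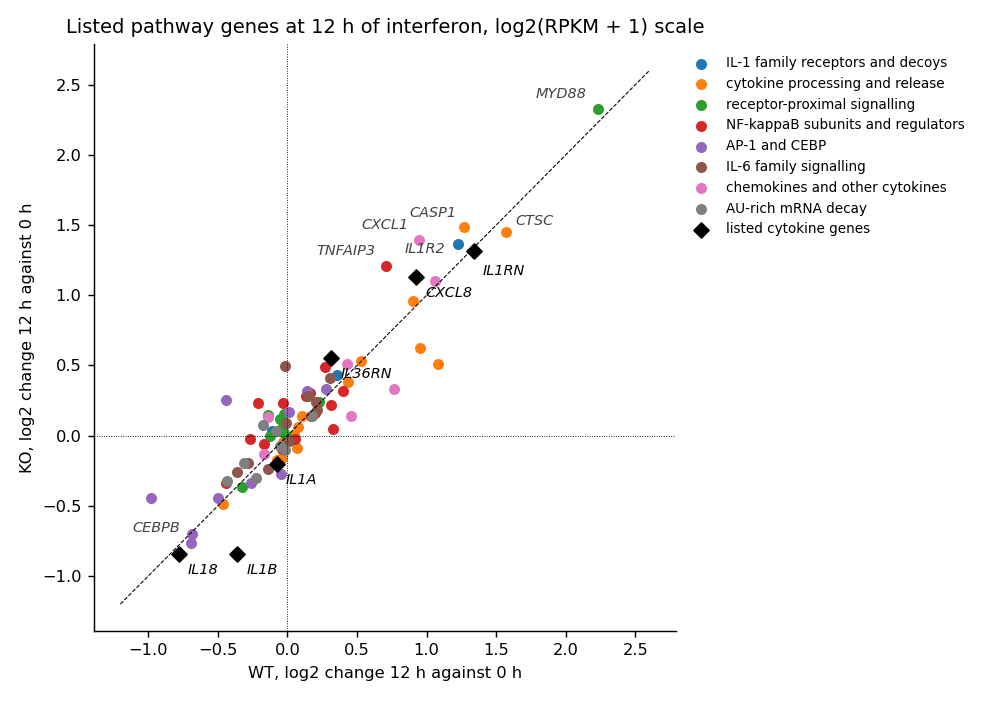
Change from 0 to 12 h of interferon in WT (horizontal) and KO (vertical), as differences of log2(RPKM + 1), for the 79 tested pathway genes (circles, by list) and the 6 cytokine genes (diamonds); the dashed line marks equal change. MYD88 lies at the upper end (2.23 and 2.33), IL1RN near CASP1 and IL1R2, and IL1B lies below the line (-0.36 and -0.84).

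The pattern over the 18 libraries was compared among the 6 genes and with all genes tested by Pearson's r of log2(RPKM + 1), as a description. The libraries share the 6 groups and the time course, so r mainly follows the group means. IL1RN and IL18 ran opposite to each other (r = -0.921), IL1RN ran with CXCL8 (0.892), and IL1A with IL1B (0.825). The genes most like IL1RN were CNP (0.975), NT5C3A (0.973) and CA12 (0.971). For IL1B they were TRIB3 (0.981), AARS1 (0.975) and PSPH (0.965), and for IL1A NGRN (0.954), H1-10 (0.948) and STC2 (0.948). IL18 was most like PTTG1 (0.984), ARL6IP5 (0.983) and PRKRA (0.979), and CXCL8 most like SLC35F6 (0.959), SLC29A1 (0.953) and ELOVL1 (0.948). For IL36RN the highest values were lower, at 0.828 for ZNF777, 0.809 for MOV10 and 0.808 for COLGALT1.

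SP100 RNA was at 27.9 to 31.9 RPKM in WT and 14.2 to 16.0 RPKM in KO before interferon, and was lower in every KO than in every WT library at each time. It was still present in KO, at 86.5 to 93.2 RPKM at 12 h and 57.4 to 62.4 RPKM at 48 h, so the RNA level does not by itself show a knockout. All 7 basal keratinocyte markers had a row, with a summed level of 13531 to 16473 RPKM that was mostly KRT5 and KRT14. At 12 h KRT5 was called lower and ITGA6, COL17A1 and LAMB3 higher in both genotypes. TP63 was called higher in KO alone, and KRT14 and ITGB4 were not called. COL17A1 and LAMB3 were lower in KO than in WT at 0 h (limma, adjusted p = 0.00689 and 0.006). Of 8 suprabasal markers 6 had a row, and their sum was 139 to 153 RPKM in untreated WT, 167 to 174 RPKM in WT at 12 h and 124 to 143 RPKM in WT at 48 h. In KO the suprabasal sum was 119 to 140, 141 to 181 and 135 to 154 RPKM. SPRR1B made up most of this sum, and its members differed in direction at 12 h: SPRR1B, IVL and DSG1 were called higher and KRT10 lower in both genotypes (KRT10 -0.27 in WT and -0.35 in KO; limma, adjusted p = 0.00936 and 0.00148), while KRT1 and KRTDAP were not called. The fibroblast list had 3 of 9 markers with a row and was carried by VIM, with a sum of 275 to 390 RPKM in WT and 189 to 260 RPKM in KO, where VIM was lower at each time. Of the 9 myeloid markers 3 had a row, with a sum of 19.7 to 25.5 RPKM untreated and 45.2 to 59.2 RPKM at 12 h that was mostly CD68. CD14 went the other way, from 5.09 to 2.40 RPKM in WT and from 5.21 to 1.43 RPKM in KO at 12 h, and was called lower in both (limma, adjusted p = 0.000792 and 8.69e-06). PTPRC, CSF1R, LYZ, TYROBP, CD207 and CD1A had no row. The part of these markers in the cytokine changes was not tested. Of the lymphocyte, melanocyte and endothelial markers, 1 of 5, 1 of 4 and 0 of 3 had a row. Relative depth, read from the steps of low values, spanned 1.47-fold over the 18 libraries, and absolute depth is unknown, so no counting interval was computed.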

How the data were processed

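RNA of 18 NIKS libraries was sequenced from stranded mRNA libraries, per the labels' protocols, and the authors deposited 1 table of RPKM values, rounded to 2 decimals, with 16472 Ensembl gene IDs. The submitters' processing notes name the build hg19 and the tools cutadapt, STAR 2.6.1, RSEM 1.3.0 and limma 3.50.3, with no role or order; the annotation, the gene filter and the reads that form the per-million total are not given in the sources used here. Symbols were matched to 15666 of the IDs. RPKM values are not counts, so log2(RPKM + 1) was fitted in limma 3.58.1 under R 4.3.3, with 1 mean for each of the 6 groups and moderated variances that follow a mean trend. Genes with at least 1 RPKM in at least 3 libraries were tested (13280). P-values were adjusted by Benjamini-Hochberg within each of 11 comparisons. These p-values measure the spread between the libraries labelled as biological replicates. The fit was tested on simulated data.

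The members and gene lists were chosen with earlier results of these data known. All members are named. Values are given from each pathway list for at most 4 called genes in a comparison, not in every case those with the largest change. A gene of the interferon treatment check is not reported here. For each member the 3 genes with the highest Pearson correlation over 18 libraries are given. Promoters came from RefSeq on GRCh38.p14 and were not tied to coordinates of the deposited table. Alternatives were a pseudocount of 0.1, no filter, a mean of at least 5 RPKM, median-of-ratios scaling, a fit restricted to the compared libraries, untrended variances, a replicate block, and leaving out each library in turn.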

Additional observations from a re-analysis of the deposited data

How the results depend on the processing

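Of 66 combinations of cytokine gene and comparison, 29 passed the threshold, 20 of these in every alternative run, and none of the 29 changed direction. The 29 include CXCL8 at 12 h and from 12 to 48 h in both genotypes, and IL36RN in KO at 12 h. Both genes were tested only because of groups in which they were high. The 9 calls lost in at least 1 alternative were IL1A and IL36RN in KO at 12 h, IL1B and IL1RN at 48 h against 0 h in both genotypes, CXCL8 from 12 to 48 h in WT, and IL1B between genotypes at 0 and 48 h. The number of cytokine genes called in KO at 48 h against 0 h went from 4 to 2 with the libraries of the comparison alone, where fewer samples estimate the spread, and ranged from 2 to 4 when single libraries were left out. In WT at 48 h against 0 h it ranged from 1 to 3, with 1 without replicate 3 at 48 h. Between genotypes at 0 h it went from 1 to 0 with the libraries of the comparison alone and ranged from 0 to 1 with single libraries left out. At 48 h it went from 1 to 0 with no filter, with median-of-ratios scaling, with the libraries of the comparison alone and with the replicate block, and ranged from 0 to 1 with single libraries left out. The cause was not tested. The replicate block ended 1 other cytokine call, IL1RN in WT at 48 h (limma, adjusted p = 0.0516). Deviations of same-numbered libraries correlated between -0.097 and 0.157, so the numbers were not taken to pair the libraries.

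A mean of at least 5 RPKM removed CXCL8 and IL36RN, which left 4 cytokine genes. With a pseudocount of 0.1 the change of CXCL8 at 12 h was 1.78 in WT and 1.91 in KO, and from 12 to 48 h it was -1.19 and -1.15. That of IL36RN in KO at 12 h was 1.28. Over all genes, the libraries of the comparison alone lowered the calls between genotypes from 650 to 306 at 0 h, from 481 to 213 at 12 h and from 556 to 250 at 48 h, those in KO at 48 h against 0 h from 1770 to 945, and the interactions from 10 to 6 and from 11 to 3. Of the 37 pathway calls in WT at 12 h 31 held in every alternative run, and of the 39 in KO 26 did. At the levels of CXCL8 and IL36RN the rounding to 2 decimals and the unknown depth limit what can be resolved.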
